A study of Caenorhabditis elegans with 8 samples.

Results

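The genes that activate fatty acids and take them through beta-oxidation were followed in RNA of whole Caenorhabditis elegans hermaphrodites of 2 adult ages. The rule for the set uses gene names and no measured value. It takes every gene whose symbol starts with acs-, cpt-, acdh-, ech- or acox- and a number, leaves out acdh-1 and ech-6, and adds daf-22, dhs-28 and maoc-1. It holds 59 of the 17076 genes listed, which are all 59 genes that the table of gene names has under these symbols. All 59 passed the filter, a mean over the 8 libraries of 1 or more, and were tested. By role they are 22 acyl-CoA synthetases (acs), 6 carnitine palmitoyltransferases (cpt), 12 acyl-CoA dehydrogenases (acdh), 9 enoyl-CoA hydratases (ech) and 10 genes of the peroxisomal cycle (7 acox genes, maoc-1, dhs-28 and daf-22).

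Both groups were N2, the standard wild-type laboratory strain, with no other genotype or agent stated. Worms labelled adult day 5 had been grown for 180 h at 20 °C on OP50 bacteria from larvae synchronized at the L1 stage, and worms labelled adult day 1 for 60 h under the same conditions, with 4 poly(A)-selected libraries per age, 1 from each of 4 labelled batches. The design text gives both ages the short name of the older one, and by culture time the groups were 5 days apart but by stated age 4. No label says whether the libraries of an age were separate cultures, so a p-value here reflects only the spread among these libraries, which may be technical.

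As background, a fatty acid enters metabolism when an acyl-CoA synthetase joins it to coenzyme A. Carnitine palmitoyltransferases carry long acyl chains into mitochondria, where acyl-CoA dehydrogenases, enoyl-CoA hydratases, hydroxyacyl-CoA dehydrogenases and thiolases shorten them in repeated rounds. Peroxisomes run a parallel cycle that starts with an acyl-CoA oxidase and, in this worm, also trims the side chains of ascarosides, the small molecules that serve as its pheromones.

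Recovered reads per library were 20569012 to 22305681 at day 5 and 19345868 to 20763236 at day 1. The 59 genes took 0.449% to 0.478% of them at day 5 and 0.491% to 0.642% at day 1. Each value given is the deposited one, a read count scaled by the size factor of its library, in the order of batches 1 to 4, and a value near 1 is a single read. A difference is the limma estimate for day 5 over day 1 in units of log2(value + 1), with its standard error (SE), and it understates the change of genes with low values. A gene was called when its adjusted p was under 0.05. Markers of tissues moved with age. The summed values of 12 germline and oocyte markers were 136185 to 212659 at day 5 and 17090 to 33352 at day 1, with 11 called higher. Those of 10 markers of hypodermis and larval cuticle were 5442 to 12717 at day 5 and 56861 to 85819 at day 1, with 7 called lower and 2 higher. The 9 muscle markers summed to 39015 to 80711 at day 5 and 137963 to 294502 at day 1, with 9 called lower. The 12 intestinal markers summed to 69735 to 90512 at day 5 and 147854 to 237775 at day 1, with 8 called lower. Most of these sums was asp-1, with means of 52722 at day 5 and 118328 at day 1. For the 8 neuronal markers the sums overlapped, at 6475 to 8518 at day 5 and 7005 to 8933 at day 1, with 5 called lower and 2 higher. For comparison, 26.8% of all genes tested were called lower and 28.8% higher. In whole animals fewer cells of a type and less RNA per cell cannot be told apart, and with day 1 libraries low in germline and high in cuticle transcripts, an effect of adult age and one of developmental stage cannot be told apart either. The part of these tissue differences in the results below was not tested.

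Between day 5 and day 1, the genes of fatty acid breakdown were lower more often than higher, and among the roles the peroxisomal cycle had the lowest median difference. Of the 59 genes 29 (49.2%) were called lower at day 5 and 5 (8.47%) higher, while 25 were not called. Among all 16739 genes tested, 26.8% were called lower and 28.8% higher. The share called in either direction was 57.6% for the 59 genes and 55.6% for all genes, so the set stood near the background in how many genes were called and away from it in their direction, a contrast for which no test was made. Groups of libraries did not overlap in 31 of the 59, with 27 lower and 4 higher at day 5, against 52.8% of all genes. The median difference was -0.80, against -0.06 over all genes. By batch the median over the 59 genes was -0.95, -0.66, -1.13 and -0.99. The sign was the same in all 4 batches in 35 of the 59, and in 10362 of the 16739 genes tested. On the recovered reads edgeR called 38 of the 59, 33 lower and 5 higher, with 55.6% of all genes called, and DESeq2 called 36, 31 lower and 5 higher, with 58.0% of all genes called. In the dehydrogenase, hydratase and peroxisomal roles limma called 0 genes higher, and 0 were higher at an unadjusted p under 0.05, with edgeR or with DESeq2. Over all 22 alternatives the number called higher was 0 to 2 among the dehydrogenases and 0 in the other 2 roles. With batches 1 and 2 left out of the day 1 group acdh-5 and acdh-8 were called higher, and with batches 3 and 4 left out of it acdh-12 was.

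**Figure D1:**
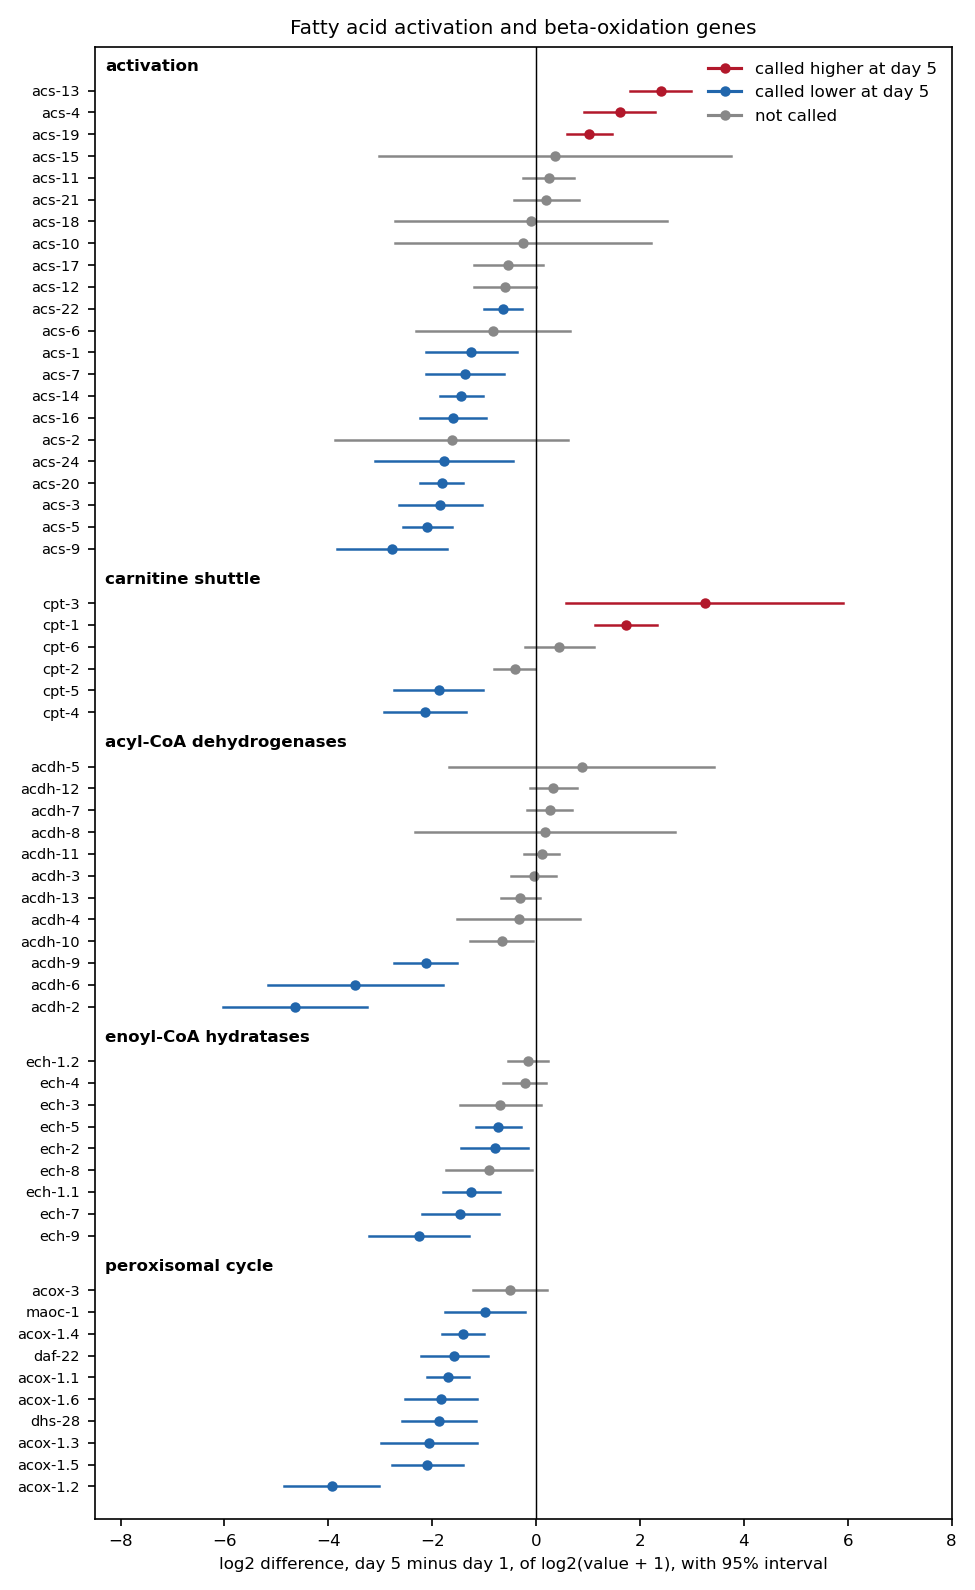
Difference of each of the 59 genes, day 5 minus day 1, in units of log2(value + 1) (horizontal axis), grouped by role and ordered by size within a role. Points are limma estimates and lines their 95% intervals. Red marks the 5 genes called higher at day 5, blue the 29 called lower and grey the 25 not called, and 9 of the 10 peroxisomal genes are blue.

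Activation divided into 3 genes (13.6%) that rose and 10 (45.5%) that fell at day 5, with 9 not called and a median difference of -0.73. Over all genes 28.8% were called higher and 26.8% lower. The share called in either direction was 59.1% in this role, near the 55.6% of all genes. The 3 that rose were acs-13, acs-4 and acs-19, and they were among the most abundant of all 59 genes at day 5. The gene acs-13 (WBGene00022037, chromosome I, 511044 to 519646, minus strand, build WBcel235) codes for a long-chain acyl-CoA synthetase. Its values were 18080, 11819, 13184 and 17224 in the day 5 libraries, against 3859, 3434, 1803 and 2622 in the day 1 libraries. Every day 5 library lay above every day 1 library, and the difference was 2.40 (SE 0.26, limma adjusted p = 5.78e-05), a 5.27-fold higher level. Of its 2662 exonic bases, 195 are shared with Y65B4BL.7 on the same strand, so a part of its reads is uncertain.

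The gene acs-4 (WBGene00018152, chromosome III, 7167838 to 7170990, plus strand) codes for another long-chain synthetase, known in the worm for a role in the germline through protein myristoylation. Its values were 11830, 8840, 9046 and 9812 in the day 5 libraries, against 4453, 4757, 1715 and 2962 in the day 1 libraries. The groups did not overlap, with the day 1 libraries of batches 3 and 4 lowest, and the difference was 1.61 (SE 0.31, limma adjusted p = 0.00154). The gene acs-19 (WBGene00007969, chromosome III, 3864489 to 3867098, plus strand) resembles acetyl-CoA synthetases, which activate acetate and not a long fatty acid. Its values were 12192, 8649, 9870 and 10890 in the day 5 libraries, against 6119, 5549, 3886 and 5054 in the day 1 libraries. It too had no overlap between the ages, and the difference was 1.02 (SE 0.19, limma adjusted p = 0.0015). The 3 genes moved in the direction of the germline markers, whose part in this was not tested.

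Among the 10 synthetase genes that fell, acs-5, a long-chain synthetase gene, had the smallest adjusted p. It had values of 727, 943, 721 and 870 in the day 5 libraries, against 2515, 3440, 4548 and 3634 in the day 1 libraries. All day 5 libraries were lower than all day 1 libraries, with a difference of -2.09 (SE 0.21, limma adjusted p = 3.39e-05). A gene of low level, acs-9, was at 6.75, 2.79, 7.97 and 4.98 in the day 5 libraries, against 25.7, 32.1, 61.6 and 61.1 in the day 1 libraries. These values did not overlap but rest on few reads at day 5, and 228 of the 1620 exonic bases of acs-9 are shared with a gene on the opposite strand. Its difference was -2.77 (SE 0.47, limma adjusted p = 0.000773).

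The relatives acs-20 and acs-22 encode fatty acid transport proteins with a known part in the lipid barrier of the cuticle, and both fell. For acs-20 the values were 501, 542, 632 and 461 in the day 5 libraries, against 1706, 1729, 1746 and 2409 in the day 1 libraries. The ages did not overlap, the day 1 library of batch 4 stood above the other day 1 libraries, and the difference was -1.82 (SE 0.19, limma adjusted p = 3.96e-05). For acs-22 the values were 1952, 1650, 1450 and 1453 in the day 5 libraries, against 2346, 2353, 2683 and 2697 in the day 1 libraries. The change was smaller, at -0.64 (SE 0.16, limma adjusted p = 0.00735), again with no overlap. Of the 10 markers of hypodermis and larval cuticle 7 (70%) were called lower as well, against 26.8% of all genes. In the same list dpy-17 and lin-26 were called higher and bli-1 was not called, and the part of these markers was not tested. The gene acs-3, which acts in fat storage and in the epidermal seam of the worm, had 56.3, 146, 100 and 127 in the day 5 libraries, against 284, 377, 293 and 580 in the day 1 libraries. Its groups did not overlap, and its difference was -1.85 (SE 0.36, limma adjusted p = 0.00163).

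Both acs-1, which serves branched-chain fatty acids, and acs-2, a mitochondrial synthetase induced by fasting under the nuclear receptor NHR-49, varied widely between libraries. For acs-1 the values were 1200, 789, 889 and 1286 in the day 5 libraries, against 3979, 3069, 1006 and 2784 in the day 1 libraries. The day 1 library of batch 3 lay within the day 5 range, and the call at -1.24 (SE 0.39, limma adjusted p = 0.0211) was lost when any 1 of 4 libraries was left out (day 5 of batch 2 or 3, day 1 of batch 2 or 4), with -1.12 to -1.18 left. For acs-2 the values were 34.9, 82.0, 663 and 173 in the day 5 libraries, against 201, 534, 136 and 2111 in the day 1 libraries. The groups overlapped in part, and the difference of -1.63 had a 95% interval of -3.87 to 0.61 (limma adjusted p = 0.197), so a change in either direction was not detectable at this spread. The other genes called lower were acs-7, which takes part in building modified ascarosides, with -1.37, and acs-14, acs-16 and acs-24 with -1.44, -1.6 and -1.77. Of these 4 acs-24 was the least certain, with 5.63, 12.1, 15.1 and 4.98 in the day 5 libraries against 10.5, 41.8, 44.0 and 50.4 in the day 1 libraries, an overlap of the groups and a call lost in 6 of 22 alternative analyses, among them those without the day 5 library of batch 1 or 4 or the day 1 library of batch 2, 3 or 4. The 9 synthetase genes not called had differences between -1.63 and 0.36.

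**Figure D2:**
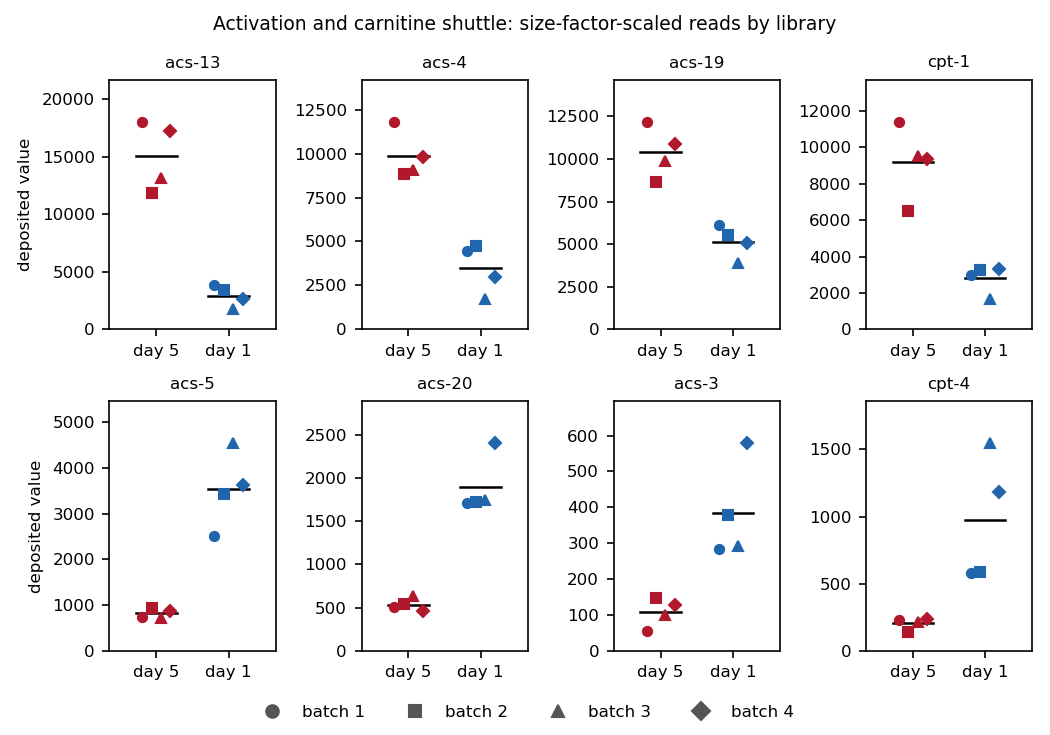
Deposited value (vertical axis, read counts divided by a size factor per library) of 8 genes of activation and the carnitine shuttle in the 4 day 5 libraries (red, left) and the 4 day 1 libraries (blue, right). Marker shapes give the batch and bars the means. In acs-13, acs-4, acs-19 and cpt-1 every day 5 point is above every day 1 point, and in acs-5, acs-20, acs-3 and cpt-4 every day 5 point is below.

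In the carnitine shuttle 2 of 6 genes (33.3%) were called higher at day 5, 2 (33.3%) lower and 2 were not called, near the shares of all genes (28.8% and 26.8%), with a median of 0.02. The call of cpt-1 held in all 22 alternatives and that of cpt-3 was lost in 12. The gene cpt-1 (WBGene00012907, chromosome II, 12788244 to 12796452, minus strand) codes for carnitine palmitoyltransferase 1, the outer membrane enzyme that forms acylcarnitines and limits entry into mitochondria. Its values were 11417, 6478, 9526 and 9341 in the day 5 libraries, against 2976, 3281, 1674 and 3308 in the day 1 libraries. All day 5 libraries exceeded all day 1 libraries, and the difference was 1.73 (SE 0.26, limma adjusted p = 0.000408). For cpt-2, whose enzyme returns the acyl chain to coenzyme A inside the mitochondrion, the values were 3477, 2872, 2689 and 2742 in the day 5 libraries, against 3277, 3553, 4742 and 4215 in the day 1 libraries. The groups overlapped through the day 5 library of batch 1, and the difference of -0.42 (95% interval -0.81 to -0.02, limma adjusted p = 0.0697) was not called.

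The paralogues cpt-4 and cpt-5 fell. For cpt-4 the values were 225, 139, 216 and 239 in the day 5 libraries, against 578, 589, 1549 and 1181 in the day 1 libraries, with a difference of -2.14 (SE 0.35, limma adjusted p = 0.000644). For cpt-5 they were 150, 361, 183 and 179 in the day 5 libraries, against 567, 617, 1536 and 612 in the day 1 libraries, with a difference of -1.88 (SE 0.38, limma adjusted p = 0.00221). In neither gene did the groups overlap, although the day 5 library of batch 2 and the day 1 library of batch 3 stood above their groups in cpt-5. The call of cpt-3 rests on little, with 1.13, 54, 131 and 37.8 in the day 5 libraries against 7.63, 1.95, 0 and 1.94 in the day 1 libraries. The groups overlapped in batch 1, and its difference of 3.24 (SE 1.19, limma adjusted p = 0.0408) lost its call in 12 of 22 alternatives, among them the replicate block and those without the library of batch 2, 3 or 4 of either age, over a range of 2.36 to 4.48. The gene cpt-6 was not called, with a difference of 0.45.

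Among the 12 acyl-CoA dehydrogenase genes 3 (25%) fell, none was called higher and 9 were not called, with a median of -0.18. Of all genes 26.8% were called lower, near the share of this role, and 55.6% were called in either direction. The gene acdh-2 had 10.1, 21.4, 21.3 and 35.9 in the day 5 libraries, against 181, 776, 396 and 1447 in the day 1 libraries. Its groups were far apart, and the difference of -4.65 (SE 0.62, limma adjusted p = 0.00018) had the greatest size among the 59 genes. It shares 87 of its 1872 exonic bases with ins-13 on the same strand. The gene acdh-6 had 4.5, 63.3, 62.0 and 43.8 in the day 5 libraries, against 243, 232, 558 and 485 in the day 1 libraries. The groups did not overlap, with the day 5 library of batch 1 at only a few reads, and the difference was -3.48 (SE 0.75, limma adjusted p = 0.00308).

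More abundant than these, acdh-9 had 675, 922, 909 and 865 in the day 5 libraries, against 2409, 2892, 4825 and 5306 in the day 1 libraries. All day 5 libraries were lower, by -2.13 (SE 0.27, limma adjusted p = 0.000134). In acdh-10, which resembles the medium-chain dehydrogenase, the values were 3244, 2567, 2728 and 3108 in the day 5 libraries, against 3128, 3383, 6791 and 6186 in the day 1 libraries. The day 1 libraries of batches 3 and 4 stood well above the day 5 range, those of batches 1 and 2 in or close to it, and the difference of -0.66 (95% interval -1.27 to -0.06, limma adjusted p = 0.0607) was not called, though it was in 7 of 22 alternatives.

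The gene acdh-11, which in the worm restrains the desaturase fat-7 by binding medium-length fatty acids, had 1789, 1434, 1514 and 1805 in the day 5 libraries, against 1609, 1497, 1405 and 1555 in the day 1 libraries. The groups overlapped, and the interval of its difference of 0.10 ran from -0.24 to 0.45. The gene acdh-12, which resembles the very-long-chain dehydrogenase, had 5369, 4052, 3812 and 3949 in the day 5 libraries, against 2566, 3175, 4186 and 3827 in the day 1 libraries. It also overlapped, with a difference of 0.33 (95% interval -0.12 to 0.78). Per exonic kilobase the 4 highest dehydrogenase genes at day 5 were acdh-3, acdh-10, acdh-12 and acdh-7, and none of these was called.

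The 9 enoyl-CoA hydratase genes had 5 (55.6%) called lower, none higher and 4 not called. Over all genes 26.8% were called lower and 55.6% in either direction. Each of the 9 differences was below 0, with a median of -0.80. The gene ech-9 had 66.4, 205, 195 and 180 in the day 5 libraries, against 452, 512, 1104 and 1002 in the day 1 libraries, a difference of -2.26 (SE 0.43, limma adjusted p = 0.00153). The gene ech-7 had 680, 774, 469 and 1179 in the day 5 libraries, against 1529, 1590, 3413 and 2038 in the day 1 libraries, a difference of -1.46 (SE 0.33, limma adjusted p = 0.00391). In both genes the groups did not overlap. The paralogues ech-1.1 and ech-1.2 code for the alpha subunit of the mitochondrial trifunctional protein, which carries out the later steps on long chains, and are given side by side.

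For ech-1.1 the values were 151, 187, 190 and 146 in the day 5 libraries, against 405, 446, 512 and 277 in the day 1 libraries. It fell without overlap, by -1.25 (SE 0.25, limma adjusted p = 0.00179). For ech-1.2 the values were 9685, 7318, 7497 and 7082 in the day 5 libraries, against 8148, 8805, 8162 and 10005 in the day 1 libraries. Its groups overlapped, and the difference of -0.16 had an interval of -0.54 to 0.22, while the difference between the paralogues was not tested. Per exonic kilobase ech-1.2 was at 2959 ± 452 at day 5 and 3291 ± 327 at day 1, and ech-1.1 at 66.9 ± 9.3 at day 5 and 163 ± 39 at day 1 (SD, n = 4 each). The genes ech-5 and ech-2 were called lower at -0.73 and -0.80, and ech-2 lost its call in 7 of 22 alternatives, among them those without the day 5 library of batch 1, 2 or 3 or the day 1 library of batch 3 or 4, with -0.80 to -0.54 left in these 5.

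In the peroxisomal cycle 9 of 10 genes (90%) fell and none was called higher, with a median of -1.76, while 26.8% of all genes were called lower. In all 9 the groups of libraries did not overlap, as in 52.8% of all genes in either direction. The oxidase gene acox-1.2 (WBGene00008565, chromosome I, 12942280 to 12946588, plus strand) had 128, 366, 397 and 246 in the day 5 libraries, against 2230, 3796, 6329 and 4819 in the day 1 libraries. Even the lowest day 1 library was far above the highest day 5 library, and the difference was -3.94 (SE 0.41, limma adjusted p = 4.32e-05), a 15.3-fold lower level. Its neighbour acox-1.1, long known as the oxidase of ascaroside side-chain shortening, had 789, 884, 726 and 929 in the day 5 libraries, against 2203, 2542, 3346 and 2731 in the day 1 libraries. It fell without overlap, by -1.69 (SE 0.18, limma adjusted p = 4.88e-05).

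The oxidase gene acox-1.5 had 1160, 1201, 1242 and 1434 in the day 5 libraries, against 2826, 4922, 7699 and 7787 in the day 1 libraries, a difference of -2.10 (SE 0.31, limma adjusted p = 0.000314). The gene acox-1.3 had 22.5, 92.2, 46.1 and 46.8 in the day 5 libraries, against 144, 192, 254 and 210 in the day 1 libraries, a difference of -2.06 (SE 0.42, limma adjusted p = 0.0021). In both the ages were apart in every library. The oxidase genes acox-1.4 and acox-1.6 fell by 1.41 and 1.84, and acox-3, with 960, 959, 1085 and 574 in the day 5 libraries against 767, 1077, 2058 and 1374 in the day 1 libraries, was not called. Its difference of -0.51 had a 95% interval of -1.22 to 0.20.

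Downstream of the oxidases stand maoc-1, the enoyl-CoA hydratase, dhs-28, the hydroxyacyl-CoA dehydrogenase, and daf-22, the thiolase whose loss is known to stop the making of short-chain ascarosides. The gene dhs-28 (WBGene00000991, chromosome X, 6818438 to 6820080, plus strand) had 2207, 2508, 2230 and 2506 in the day 5 libraries, against 4849, 6628, 14935 and 11465 in the day 1 libraries. The day 5 libraries were close to one another and below every day 1 library, and the difference was -1.87 (SE 0.32, limma adjusted p = 0.000825). The gene daf-22 (WBGene00013284, chromosome II, 12423518 to 12425694, minus strand) had 1546, 1374, 1290 and 1595 in the day 5 libraries, against 2895, 3076, 7163 and 5395 in the day 1 libraries. It fell in the same manner, by -1.57 (SE 0.29, limma adjusted p = 0.00119). The gene maoc-1 had 925, 927, 928 and 867 in the day 5 libraries, against 997, 1357, 3497 and 2247 in the day 1 libraries. The day 1 library of batch 1 was barely above the day 5 libraries, and the call at -0.99 (SE 0.34, limma adjusted p = 0.0329) was lost in 7 of 22 alternatives, among them those without any 1 of the day 5 libraries or without the day 1 library of batch 4, with -0.99 to -0.88 left in these 5. Of its 1063 exonic bases, 105 are shared with a gene on the opposite strand, and dhs-28 shares 76 of 1409, which matters where no strand marking is stated.

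**Figure D3:**
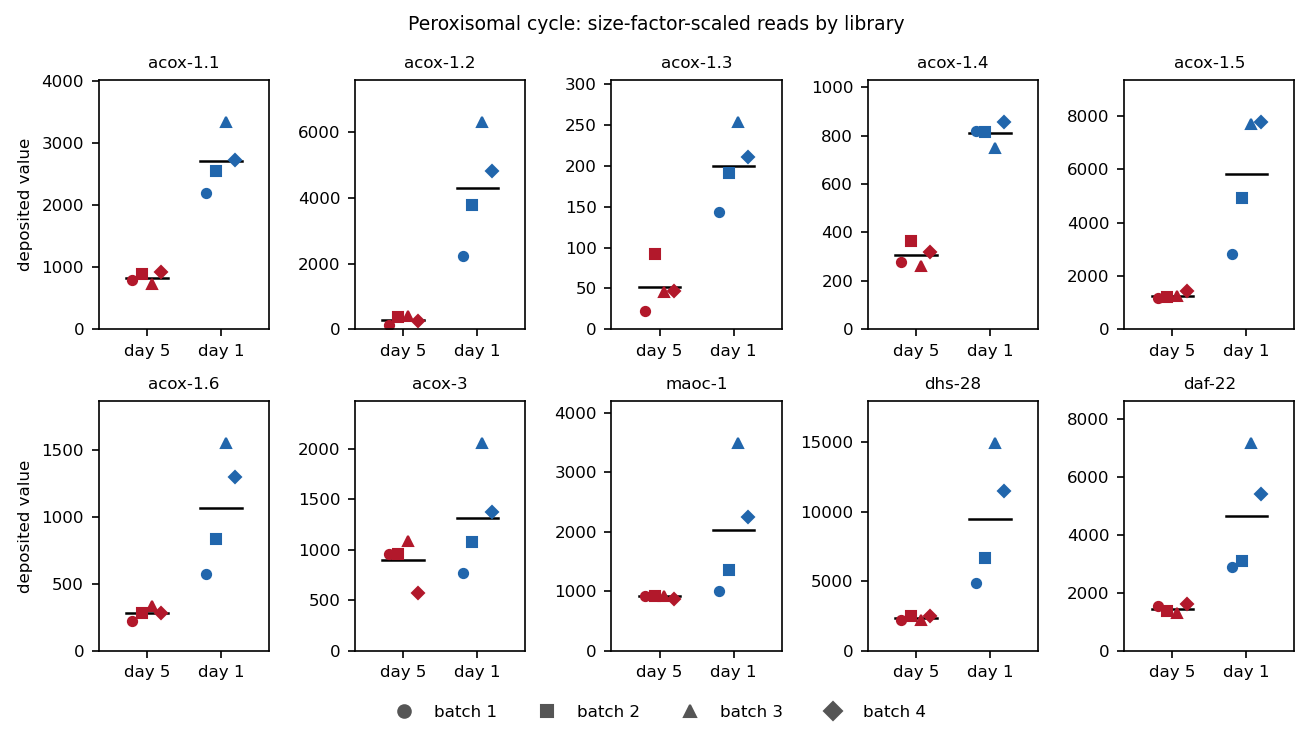
Deposited value (vertical axis, read counts divided by a size factor per library) of the 10 genes of the peroxisomal cycle in the 4 day 5 libraries (red, left) and the 4 day 1 libraries (blue, right), with marker shapes for the batch and bars for the means. Only acox-3 has overlapping ages, and dhs-28, daf-22, maoc-1 and acox-1.6 have the day 1 libraries of batches 3 and 4 well above those of batches 1 and 2.

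The intestine is the known site of much of this peroxisomal activity. Of the 12 intestinal markers 8 (66.7%) were called lower as well, with a median of -1.15. Among all genes 26.8% were called lower and 55.6% in either direction. The markers elt-2, elt-7, erm-1 and mtl-2 were not called. The part of the intestinal markers in the fall of the peroxisomal genes was not tested. Across 22 alternative analyses between 8 and 10 of the 10 peroxisomal genes were called lower and 0 higher.

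Levels were compared between genes as the deposited value per exonic kilobase. On this scale acs-13 was at 5664 ± 1144 at day 5 and 1100 ± 342 at day 1, which is rank 1 of the 59 genes at day 5 and rank 21 at day 1. The gene acs-19 was at rank 2 at day 5 and 9 at day 1, acs-4 at 3 and 19, and cpt-1 at 4 and 24. The gene dhs-28 went the other way, with 1677 ± 118 at day 5, rank 11, and 6721 ± 3259 at day 1, rank 1. The oxidase gene acox-1.2 was at 137 ± 59 at day 5, rank 37, and 2072 ± 833 at day 1, rank 10.

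Summed over a role, the per-kilobase level of the peroxisomal cycle was 5247, 5607, 5333 and 5558 in the day 5 libraries, against 10972, 14900, 29571 and 23253 in the day 1 libraries. The sum was 3.62-fold lower at day 5, without overlap, and between 3.58-fold and 4.27-fold lower under the other scalings tried. Enoyl-CoA hydratases summed to 7505 ± 733 at day 5 and 11643 ± 2644 at day 1, again without overlap. Acyl-CoA dehydrogenases summed to 10922 ± 1046 at day 5 and 14726 ± 3398 at day 1, and the libraries overlapped. With libraries rescaled to the same sum, or with the top 1% of genes kept out of the scaling, the dehydrogenase sum was lower at day 5 without overlap, by 1.42-fold and 1.61-fold.

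The activation sum ran opposite to the count of its genes. It was 17955 ± 2187 at day 5 and 14108 ± 1164 at day 1, a ratio of 1.27 without overlap, which shrank to 1.06 with overlap when the top 1% of genes by level were kept out of the scaling. The genes acs-13, acs-19 and acs-4 held 75.5 ± 3.4% of it at day 5 and 32.0 ± 7.8% at day 1. The other 19 synthetase genes summed to 4347 ± 275 at day 5 and 9575 ± 1124 at day 1. In the carnitine shuttle the sum was 5185 ± 824 at day 5 and 3888 ± 405 at day 1, overlapping, though higher at day 5 without overlap (1.26-fold) with libraries rescaled to the same sum. With the top 1% of genes kept out of the scaling that sum was 1.11-fold higher at day 5, with overlap. The gene cpt-1 held 62.7% of it at day 5 and 26.3% at day 1 with the values as deposited, while cpt-2 held 26.9% at day 5 and 47.4% at day 1. Inside the peroxisomal cycle the shares of dhs-28 and daf-22 moved little, with 30.8% at day 5 and 33.4% at day 1 for dhs-28, and 20.0% at day 5 and 17.7% at day 1 for daf-22. Over all 59 genes the sum was 47003 ± 4394 at day 5 and 64039 ± 14167 at day 1, and the libraries overlapped. It was lower at day 5 without overlap, by 1.44-fold, with libraries rescaled to the same sum, and by 1.62-fold with the top 1% of genes kept out of the scaling.

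**Figure D4:**
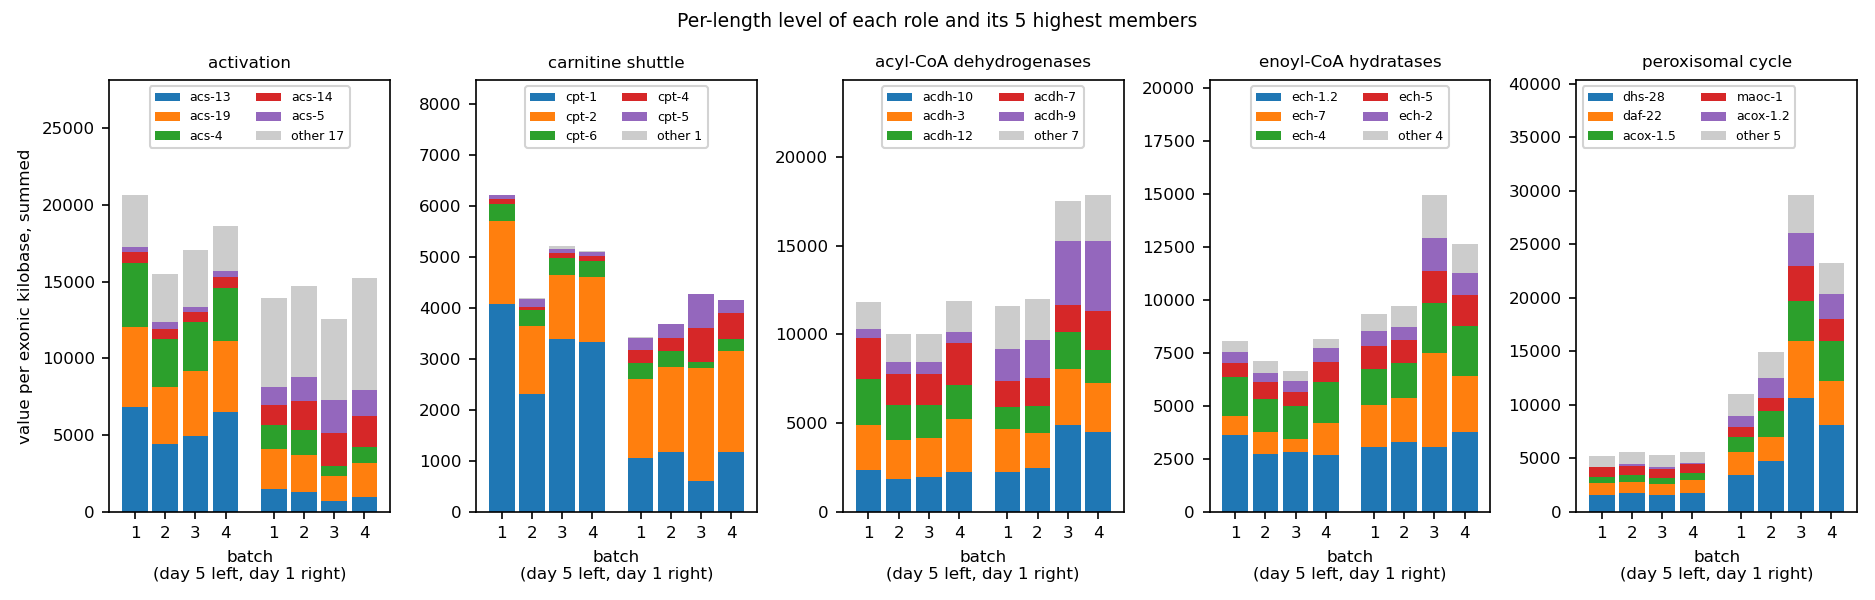
Per-length level (vertical axis, deposited value per exonic kilobase, summed over the genes of a role) in the 4 day 5 libraries (left) and the 4 day 1 libraries (right) of each role, with batches on the horizontal axis. Colours show the 5 genes with the highest levels of the role and grey the rest. The activation bars of day 5 are mostly acs-13, acs-19 and acs-4, and the peroxisomal bars of day 5 are all below those of day 1.

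Position on the chromosomes was looked up because several of these genes are neighbours. The genes acox-1.1, acox-1.2, acox-1.3 and acox-1.4 lie head to tail on the plus strand of chromosome I, from 12938555 to 12954003, with 52, 343 and 34 bases between them. All of these 4 fell, by 1.69, 3.94, 2.06 and 1.41, and whether these adjacent genes differ in the size of the fall was not tested. The pair acdh-10 and acdh-7 lies on the minus strand of chromosome X nearly adjoining, and neither was called. The genes acdh-12 and maoc-1 lie back to back on chromosome II with 634 bases between their starts, and had differences of 0.33 and -0.99. The genes ech-9 and ech-8, 1296 bases apart on chromosome IV, had differences of -2.26 and -0.91, the second not called. Reads of similar paralogues such as the acox-1 genes may be lost or assigned to the wrong copy, and 22 of the 59 genes share exonic bases with another gene.

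The day 1 libraries were less alike than the day 5 libraries for these genes. The median SD on the log2 scale was 0.24 at day 5 and 0.60 at day 1 over the 59 genes, against 0.36 at day 5 and 0.54 at day 1 over all genes. The SD was larger at day 1 in 46 of the 59, and in 11087 of the 16739 genes tested. In 36 of the 59 genes (61.0%) the day 1 libraries of batches 3 and 4 were both above those of batches 1 and 2, against 35.4% of all genes, and in 13 (22%) both were below, against 30.3% of all genes. No test of these shares was made. In the peroxisomal cycle every gene but acox-1.4 was of the first kind, as the values of dhs-28, daf-22 and maoc-1 show.

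A gap of at least 2-fold between the pairs of day 1 libraries was found in 6 genes of the second kind, namely acs-6, acs-10, acs-15, acs-18, acdh-5 and acdh-8, none of them called. These are 10.2% of the 59, close to the 11% of all genes. Of the first kind only cpt-4, which was called lower, had such a gap (1.69% of the 59, against 2.98% of all genes). The gene acs-10 had 22.5, 194, 159 and 129 in the day 5 libraries, against 630, 355, 22 and 35.9 in the day 1 libraries. The gene acdh-8 had 33.8, 249, 162 and 113 in the day 5 libraries, against 614, 319, 25.3 and 18.4 in the day 1 libraries. In both, batches 1 and 2 were high at day 1 and batch 1 low at day 5. The summed values of 6 sperm markers were likewise high in batches 1 and 2 at day 1 and low in batch 1 at day 5, with 162, 1785, 1056 and 1041 in the day 5 libraries against 2824, 1579, 140 and 116 in the day 1 libraries, and limma called 0 of the 6 sperm markers, with 1 lower at an unadjusted p under 0.05, 1 with edgeR and 1 with DESeq2. The part of sperm RNA in these 6 genes was not tested. Outside the sperm list bli-1, a marker of hypodermis and larval cuticle, and F54C8.1 were likewise highest in batches 1 and 2 at day 1. Both were lowest in batch 1 at day 5. For bli-1 the values were 163, 388, 500 and 372 in the day 5 libraries, against 11796, 5741, 173 and 211 in the day 1 libraries. With batches 1 and 2 left out of the day 1 group, 10 of the 59 genes were called higher and 34 lower. Of all 16679 genes tested in that run, 5220 were called higher and 4750 lower. With batches 3 and 4 left out of the day 1 group, 5 of the 59 were called higher and 32 lower. Of all 16690 genes tested there, 5026 were called higher and 4584 lower.

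**Figure D5:**
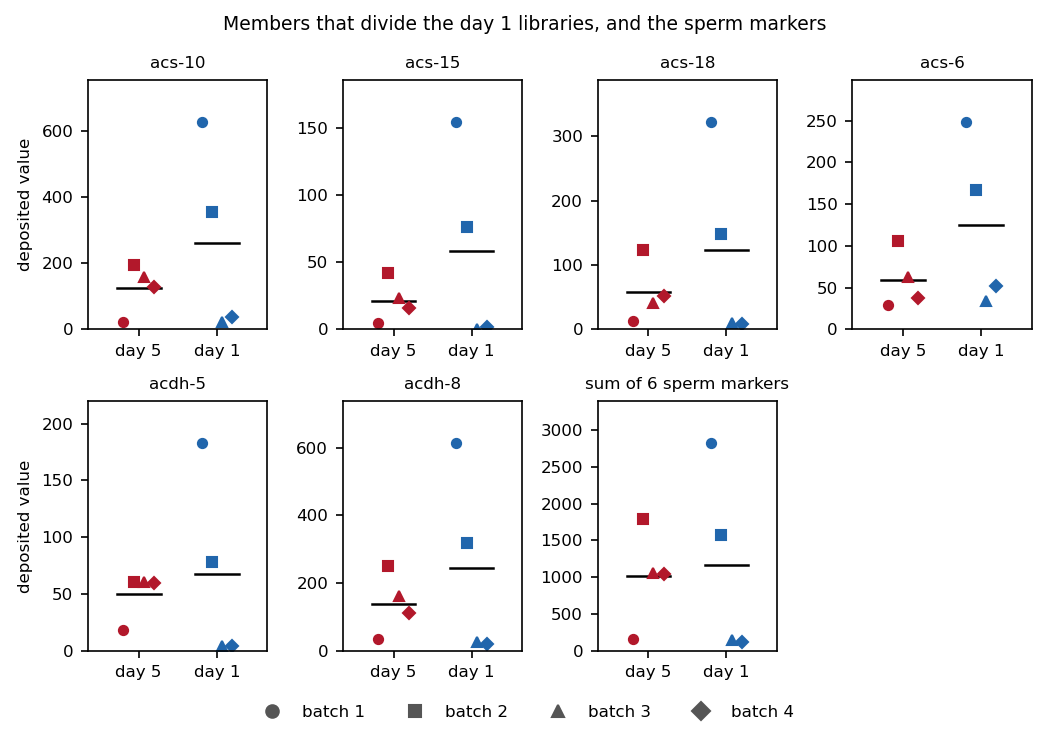
Deposited value (vertical axis, read counts divided by a size factor per library) of 6 genes whose day 1 libraries divide by batch, and the summed value of 6 sperm markers, in the 4 day 5 libraries (red, left) and the 4 day 1 libraries (blue, right). Marker shapes give the batch and bars the means. In every panel batches 1 and 2 are highest at day 1 and batch 1 is lowest at day 5.

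Genes that work around this pathway were described from lists chosen from general knowledge. Of 11 genes for peroxisome import and biogenesis 7 (63.6%) were called lower and 2 (18.2%) higher, with a median of -0.99. The shares of all genes were 26.8% lower and 28.8% higher. Among the 7 lower, prx-2 lost its call in 11 of 22 alternatives, among them the replicate block and those without any 1 library other than the day 1 library of batch 1, and prx-6 lost it in 3, among them those without the day 5 or the day 1 library of batch 4. The gene prx-1, an ATPase that recycles the import receptor, averaged 115 ± 11 at day 5 and 396 ± 160 at day 1, a difference of -1.68 (SE 0.32, limma adjusted p = 0.00137). The import docking gene prx-14 averaged 1342 ± 278 at day 5 and 410 ± 70 at day 1, a difference of 1.70 (SE 0.21, limma adjusted p = 0.000115), and prx-10 was also called higher, at 0.64, a call lost without the day 1 library of batch 4. Of 5 pmp genes listed as peroxisomal ABC transporters 4 (80%) were called lower and 1 (20%) higher, with a median of -1.32. Here pmp-5 averaged 404 ± 128 at day 5 and 3436 ± 1540 at day 1 (-3.04, SE 0.31, limma adjusted p = 4.11e-05), pmp-4 averaged 349 ± 126 at day 5 and 855 ± 265 at day 1 (-1.32), and pmp-3 averaged 2556 ± 405 at day 5 and 902 ± 268 at day 1 (1.55).

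For the later steps, the thiolases and hydroxyacyl-CoA dehydrogenases, 7 genes were tested, with a median of -0.68. By limma 4 (57.1%) were called lower and 0 higher (0 also with edgeR and DESeq2 and at an unadjusted p under 0.05). Among all genes 26.8% were called lower and 55.6% in either direction. Among the 4 lower, hadb-1 lost its call in 8 of 22 alternatives, among them the replicate block and those without the day 5 library of batch 2, 3 or 4 or the day 1 library of batch 3 or 4, and T02G5.7 lost it without the day 1 library of batch 4. The mitochondrial thiolase gene kat-1 averaged 3147 ± 226 at day 5 and 5944 ± 1870 at day 1, a difference of -0.87 (SE 0.21, limma adjusted p = 0.00589), and the hydroxyacyl-CoA dehydrogenase gene B0272.3 averaged 1354 ± 136 at day 5 and 3076 ± 1458 at day 1, a difference of -1.06. Electrons from the mitochondrial dehydrogenases pass to the electron transfer flavoprotein, whose subunit genes F27D4.1 and F23C8.5 fell. For F23C8.5 the mean was 3762 ± 523 at day 5 and 9574 ± 3434 at day 1, a difference of -1.29 (SE 0.26, limma adjusted p = 0.0022). The gene let-721, for the dehydrogenase that takes electrons from that flavoprotein, was called higher at 0.44 (limma adjusted p = 0.0313), a call lost in 11 of 22 alternatives, among them those without any 1 of the day 5 libraries or the day 1 library of batch 1 or 2.

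Of 11 regulators of fat metabolism 3 (27.3%) were called higher and 3 (27.3%) lower, near the shares of all genes (28.8% and 26.8%), with a median of 0.21. Among the 3 higher, nhr-13 lost its call in 8 of 22 alternatives, among them the replicate block and those without the day 5 library of batch 1, 2 or 4 or the day 1 library of batch 1 or 2. The nuclear receptor gene nhr-49, a known activator of acs-2 and other genes of fatty acid breakdown, had 2873, 1878, 2612 and 2484 in the day 5 libraries, against 1540, 1448, 527 and 1086 in the day 1 libraries. It rose without overlap, by 1.19 (SE 0.33, limma adjusted p = 0.0108). Its partner gene nhr-66 averaged 2398 ± 356 at day 5 and 788 ± 80 at day 1 (1.6, limma adjusted p = 5.21e-05), and nhr-114 averaged 192 ± 36 at day 5 and 2171 ± 545 at day 1 (-3.48, limma adjusted p = 3.21e-06). The Mediator subunit gene mdt-15, a cofactor of NHR-49, had 3782, 2685, 3143 and 3100 in the day 5 libraries, against 3435, 4110, 869 and 1706 in the day 1 libraries, overlapped and was not called at 0.56. Of 7 genes in a broad list headed glyoxylate, ketone and acetate outlets 4 (57.1%) were called lower and 0 higher by limma, with a median of -0.71. At an unadjusted p under 0.05 1 was higher, and 0 with edgeR or DESeq2. Among all genes 26.8% were called lower and 55.6% in either direction. The 4 called lower here were sucl-1, acer-1, hach-1 and alh-3, and acer-1 lost its call without the day 5 library of batch 2. In icl-1, from the glyoxylate part of the list, the groups overlapped, and its difference of -0.68 (limma adjusted p = 0.186) was not called. The gene hach-1, known from the breakdown of branched-chain amino acids and propionate, averaged 1886 ± 219 at day 5 and 7380 ± 4508 at day 1, a difference of -1.78 (SE 0.37, limma adjusted p = 0.00235).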

How the data were processed

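Whole N2 hermaphrodites labelled adult day 5 and adult day 1 gave 4 libraries each. The submitters' processing notes name HISAT2, HTSeq and build WBcel235 without versions. Although the authors named their deposited table FPKM, it holds a size-factor-scaled signal: dividing each column by its smallest step returned whole read counts, within 0.001 reads, for 100% of the deposited values, with no correction for length. Of the columns of values 0 were unused. Exonic lengths and 1-based coordinates came from annotation release 115 of WBcel235. No strand marking is stated, and no 2 libraries agreed within sampling noise.

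Genes averaging 1 or more (16739) were tested with limma 3.58.1 (R 4.3.3) after adding 1 and taking log2. The model had only the group, the variance followed a trend on the mean, p-values were adjusted by Benjamini-Hochberg, and an adjusted p under 0.05 was a call. The script was tested on simulated data. Alternatives were pseudocounts of 0.1 and 5, a minimum mean of 0 or 5, 3 other scalings, robust and untrended variance, a replicate block, edgeR 4.0.16 (quasi-likelihood) and DESeq2 1.42.0 on the recovered reads, each library left out, and the day 1 group without batches 1 and 2 or without batches 3 and 4. Batch labels pair 1 library of each age. Deviations of same-batch libraries from their group means had correlations across genes of -0.22, 0.24, -0.09 and -0.02.

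The members, lists and tests were chosen with earlier results of these data known. The rule for named genes took, within each role, called genes with non-overlapping groups, up to 4 with the largest differences in each direction, the gene with the highest per-length level, and a list of well-studied genes fixed by name. In the related lists it took the largest called difference in each direction, nhr-49, mdt-15, kat-1 and pmp-4. Members outside this rule were named after their values were seen. Python 3.11.15 with matplotlib 3.10.9 drew the plots.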

Additional observations from a re-analysis of the deposited data

Results flagged for a closer look

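A library standing far from the other 3 of its age, relative to the range of the 4, was looked for in the 64 groups of the 32 genes named by rule, and 6 were found, where chance flags about 1 in 20 groups. At day 5 these were acdh-12 and ech-1.2 in batch 1, which were high at 5369 and 9685, cpt-5 in batch 2, which was high at 361, and maoc-1 in batch 4, which was low at 867. At day 1 they were acs-20 in batch 4, which was high at 2409, and cpt-5 in batch 3, which was high at 1536. For maoc-1 the day 5 range was narrow, from 867 to 928.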

How the results depend on the processing

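Of the 34 genes called 29 kept their call and direction in all 22 alternatives, and the calls of acs-1, acs-24, cpt-3, ech-2 and maoc-1 were lost in at least 1. No called gene changed sign. Of the 25 genes not called 18 were called in at least 1 alternative. Leaving out each library gave 25 to 32 genes lower, 4 to 5 higher and medians of -0.88 to -0.74. Over all genes these runs called 3813 to 4488 lower and 4407 to 5024 higher, of 16720 to 16753 tested. With the replicate block 29 were called lower and 4 higher, cpt-3 being lost, and the block changed no other call of a member. Of all 16739 genes it called 4177 lower and 4633 higher. In the related lists it ended the calls of prx-2, hadb-1, let-721 and nhr-13. The median moved from -0.80 by more than its spread between batches in 5 alternatives, and the cause was not tested: -1.11 with edgeR, -1.08 with DESeq2, -1.05 when the top 1% of genes by level were kept out of the scaling, -1.16 when the day 1 group lacked batches 1 and 2, where also 10 genes were called higher, and -1.1 when it lacked batches 3 and 4. Scaling without the top 1% moved the median of all genes to -0.30, the share of all calls that were higher to 44.2% against 51.8% as deposited, and the calls of the 59 genes to 38 lower and 4 higher. At this depth genes with values of a few units, such as acs-9 and cpt-3, rest on a few reads.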
